A study of Mus musculus with 9 samples.

Results

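Interleukin-27 (IL-27) was added to mouse group 2 innate lymphoid cells (ILC2s) that were cultured with interleukin-33 (IL-33), and the transcripts of these cells were set against those of cells given IL-33 alone. The comparison takes 3 RNA-seq libraries of cells given IL-33 + IL-27 and 3 of cells given IL-33 alone, which are 6 of the 9 libraries of the series. The other 3 libraries came from cells given IL-33 + IFN-γ and served to estimate the spread and for one direct comparison. Wild-type C57BL/6 mice were the source of all cells, which were taken from fat-associated lymphoid clusters and cultured for 48 h with each cytokine at 10 ng/ml. The age and sex of the mice, and whether several mice were pooled for a culture, are not given in the sources used here. Every library, the IL-33 one included, was therefore made from activated cells, and no library came from cells without a cytokine. Libraries were matched by their replicate numbers 1 to 3. Nothing states that the replicates came from separate mice, so the p-values reflect the spread of these cultures alone, which may be in part technical.

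IL-33 is an alarm signal released by damaged tissue that drives ILC2s to divide and to secrete type 2 cytokines such as IL-5 and IL-13. IL-27 is a heterodimeric cytokine made mainly by myeloid cells. It binds a receptor built from IL-27Rα and gp130, which activates Janus kinases and, through them, transcription factors of the STAT family, STAT3 among them. IFN-γ signals through a receptor of its own, which does not engage gp130. In T cells IL-27 is known both for raising interferon-type genes and for limiting type 2 and type 17 responses.

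Levels are given as FPKM, fragments per kilobase of transcript scaled to the mapped fragments of the library, in the order of replicates 1, 2 and 3. Differences are the mean of the 3 paired differences of log2(FPKM + 1), given ± limma's standard error (n = 3 per group). That error comes from the residuals of all 9 libraries, drawn toward a variance trend over all tested genes. It does not come from the spread of the 3 pairs alone. The log2 scale with 1 added understates the change of low genes. For a gene near 0 in one group, the size of the difference depends on the added 1. Values of the replicate 3 libraries were deposited with 1 decimal. A gene was tested if its mean over the 6 libraries reached 5 FPKM, which 8379 of 23234 listed genes did (36.1%). Cox7a1 (4.9964 FPKM) and Atad2b (4.9996) fell just below that limit, and E4f1 (5.0015) and Raph1 (5.0040) just above it. A gene was called higher or lower where limma's Benjamini-Hochberg adjusted p, from a model that held the replicate number as a block, was under 0.05. Beside that fit, each of the 6 libraries and then each replicate number was left out in turn, which gives 9 leave-out fits. Where these fits or a fit without the block lost a call, this is given beside the gene or in the counts of its list. A list count given for replicate 3 alone need not be the smallest of the leave-out counts. Because a few libraries of bulk RNA were compared, a smaller number of cells of one type and less RNA per cell cannot be told apart.

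The libraries held transcripts of ILC2s at high levels: the summed FPKM of 13 ILC2 markers was 14900 to 22600 with IL-33 and 12700 to 13700 with IL-33 + IL-27, most of it Il5 and Il13. T cell markers Cd3d and Cd3e stayed at or below 2.51 FPKM in these 6 libraries, and Cd4 and Cd5 were listed at 0 in all 9. The 3 tested T cell markers were higher: Cd3g was at 29.8 to 97.6 FPKM, Lat reached 109.4 and Zap70 101.4. The T cell list summed to 149 to 266 FPKM with IL-33 and 171 to 303 with IL-27. The B cell list summed to 33.2 to 57.7 FPKM in these 6 libraries, and its 1 tested gene, Cd79b, reached 55.2. Whether T or B cells were present was not tested. Of the NK cell and ILC1 list, Klrk1, Gzma, Gzmb and Klra8 were listed at 0 throughout, as were Csf1r, Mrc1, C1qa and C1qb of the macrophage list and 6 of 10 mast cell and basophil genes. Of the other 4 of that list, Kit was at 27.9 to 49.6 FPKM, Fcer1a reached 7.0, Cpa3 2.3 and Tpsb2 2.2, and the list summed to 34.7 to 50.7 FPKM in these 6 libraries. The macrophage and monocyte list summed to 11.2 to 19.7 FPKM with IL-33 and 34.5 to 54.7 with IL-33 + IL-27. Without Ly6c2 these sums were 3.30 to 10.3 and 1.16 to 18.4. The replicate 3 libraries stood apart by fibroblast transcripts: the sum of 11 fibroblast markers other than Thy1 was 17.6, 3.10 and 40.6 FPKM under IL-33 and 9.49, 7.97 and 70.6 under IL-33 + IL-27. Their part in the results was not tested, and counts of the gene lists are given with and without replicate 3 where these differ. An approximate estimate from the smallest values put the libraries at 851000 to 977000 fragments, so that 1 fragment of a 2 kb transcript was worth 0.512 to 0.588 FPKM. At this depth a level below about 1.54 to 1.76 FPKM, worth 3 fragments, cannot be told from 0, and this limit covers counting error only.

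More genes were called higher than lower with IL-27, and the higher ones differed by more at the median. Gbp2, Iigp1 and Irf1 were among the higher genes, and Cd34, Il9 and Pdcd1 among the lower ones. Of 8379 tested genes, 394 were higher with IL-33 + IL-27 (4.70%) and 235 were lower (2.80%), together 629 (7.51%), and all 629 moved the same way in the 3 pairs, as did 45.8% of all tested genes. The median difference was 1.07 among the higher genes and -0.73 among the lower ones. Differences of at least 1 on the log2 scale were found for 214 higher and 52 lower genes, and differences of at least 2 for 55 and 16. In 294 of the higher and 134 of the lower genes the 3 libraries of each group did not overlap, against 1219 of all tested genes (14.5%). Of the higher genes, 48 had a mean under 5 FPKM with IL-33 and entered the test through the libraries with IL-27, as 15 of the lower genes did through those with IL-33. For these 48 and 15 genes the direction was fixed by the filter. The block carried many of the 629 calls: without it 107 genes were higher and 14 lower, and without replicate 3 the counts were 184 and 40. Scaling the libraries to equal sums after small RNAs were left out gave 369 higher and 332 lower, which moved the share of higher genes among the calls from 62.6% to 52.6%.

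**Figure D1:**
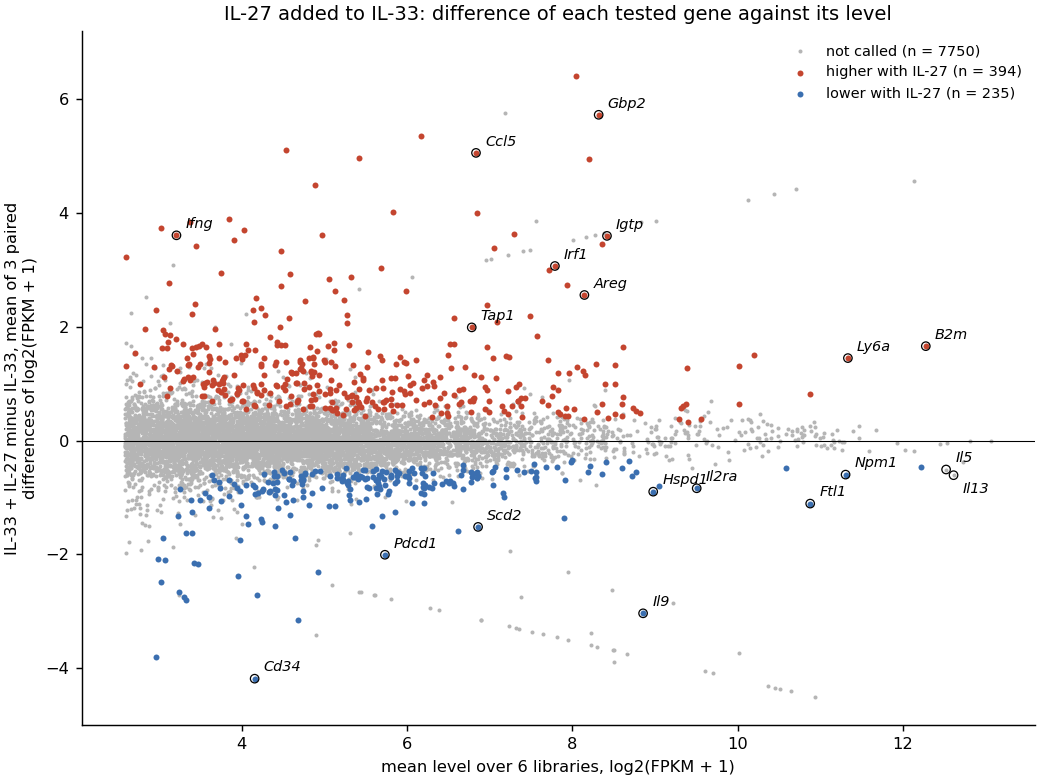
Difference between IL-33 + IL-27 and IL-33 (vertical axis, mean of 3 paired differences of log2(FPKM + 1)) against the mean level over the 6 libraries (horizontal axis, log2(FPKM + 1)) for the tested genes. Red points are the 394 genes called higher, blue points the 235 called lower and grey points the rest; 5 small RNA features lie outside the vertical range. The higher genes reach larger differences than the lower ones, and Il5 and Il13, among the most abundant genes, lie slightly below 0 and are not called.

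Genes were ranked by their smallest paired difference, so that a high rank needs all 3 pairs. Large differences in every pair of the higher and lower genes of highest rank therefore follow from the ranking. The gaps between their groups are given as a description. Among the higher genes of highest rank were Gbp2, Gbp6, Iigp1, Gbp10, Ccl5, Tgtp1, Tgtp2, Gbp5, Gbp4, Igtp and Zbp1. Gbp2 (chr3:142283566-142300972 on mm9), an interferon-induced GTPase of host defence, was at 6.78, 10.8 and 16 FPKM under IL-33 and 499, 578 and 795 under IL-33 + IL-27 (log2 difference 5.73 ± 0.13, adjusted p = 9.36e-07). Every library with IL-27 lay far above every library without it, a 52.9-fold difference on this scale. Iigp1, another GTPase that attacks the vacuoles of intracellular pathogens, was at 0, 0 and 0.7 FPKM under IL-33 and 27.9, 32.01 and 72.3 under IL-33 + IL-27 (log2 difference 5.11 ± 0.26, adjusted p = 4.15e-05). It was at or near the detection limit with IL-33 alone and detected in all 3 libraries with IL-27. Zbp1, a sensor of double-stranded nucleic acid in the Z conformation, was at 12.9, 19.3 and 39.9 FPKM under IL-33 and 207, 282 and 372 under IL-33 + IL-27 (log2 difference 3.63 ± 0.14, adjusted p = 1.4e-05). All 11 of these calls also held without the block, and in the 9 leave-out fits all but that of Tgtp1 held (adjusted p = 0.0534 without replicate 1).

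The 12 lower genes of highest rank were Cd34, Nupr1, Shisa3, Il9, Csn1s1, Fkbp11, Ppic, Pdcd1, Scd1, Ppfibp2, Mt2 and Ier3. Cd34 (chr1:196765015-196787486 on mm9), a sialomucin of the cell surface, was at 35.6, 30.4 and 31.9 FPKM under IL-33 and 0.456, 2.06 and 0.4 under IL-33 + IL-27 (log2 difference -4.19 ± 0.40, adjusted p = 0.0011). It was well expressed in all 3 libraries with IL-33 and at or near the detection limit in all 3 with IL-27. Cd34 was among the 15 lower genes that reached the filter only through the libraries with IL-33. Others of the 12 are not marked in this way and may be among the 15 too. Csn1s1, which encodes a casein, was at 27.6, 47.98 and 72.5 FPKM under IL-33 and 3.73, 10.95 and 13.9 under IL-33 + IL-27 (log2 difference -2.31 ± 0.17, adjusted p = 0.000295). The highest library with IL-27 lay below the lowest with IL-33. Of the 12 lower genes, Cd34, Shisa3 and Pdcd1 also passed without the block (adjusted p = 0.00286, 0.0222 and 0.00247). The other 9 did not, with unblocked adjusted p from 0.0703 for Csn1s1 to 0.504 for Mt2, and in the leave-out fits Cd34, Csn1s1 and Pdcd1 kept the call throughout while the other 9 lost it in 1 to 9 of them. Nupr1 was lost in all 9, Il9 and Fkbp11 in 7, Scd1 and Ier3 in 6, Ppic in 2 and Shisa3, Ppfibp2 and Mt2 in 1.

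**Figure D2:**
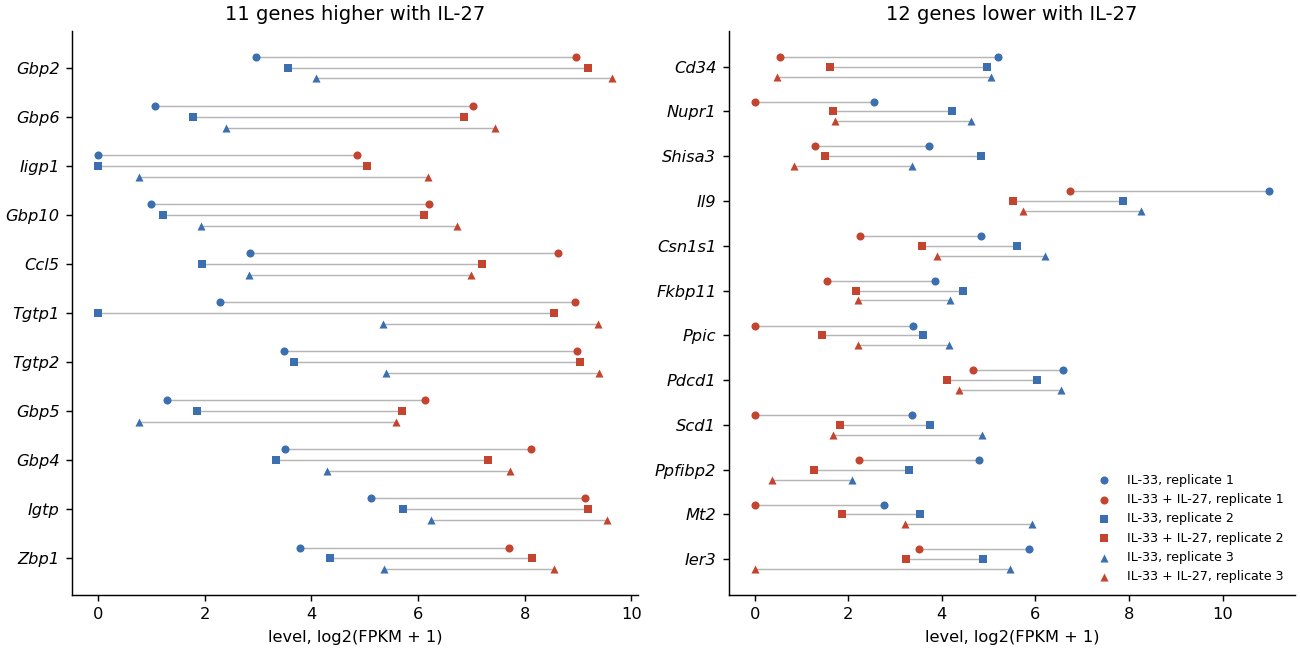
Level of 11 higher (left) and 12 lower (right) genes of highest rank in each library (horizontal axis, log2(FPKM + 1)), with IL-33 in blue, IL-33 + IL-27 in red, a marker shape for each replicate number and a grey line joining the libraries of 1 number. Gbp2 moves from 6.78 to 16.0 FPKM up to 499 to 795, and Cd34 from 30.4 to 35.6 FPKM down to 0.400 to 2.06.

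Of the receptor and its kinases, 1 gene was called. Il27ra, the ligand-binding chain of the IL-27 receptor, was at 36.9, 25.04 and 23.3 FPKM under IL-33 and 55.5, 39.1 and 53 under IL-33 + IL-27 (log2 difference 0.78 ± 0.17, adjusted p = 0.0333; lost in 8 of 9 leave-out fits, up to 0.18 without replicate 3). The groups did not overlap, but the call did not hold without the block (adjusted p = 0.165). Il6st, which encodes gp130, was too low to be tested at 2.33, 1.77 and 5.2 FPKM under IL-33 and 3.93, 2.66 and 4.8 under IL-33 + IL-27. Of the 8 tested genes of the receptor and Janus kinase list, Il27ra was the 1 that rose and none fell. Jak1, the kinase bound to gp130, was at 153, 193 and 162 FPKM under IL-33 and 155, 156 and 172 under IL-33 + IL-27 (adjusted p = 0.793). Jak2 and Tyk2 differed by 0.31 and -0.01 on the log2 scale (adjusted p = 0.285 and 0.976).

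Of the STAT factors, Stat2, part of the complex that answers type I interferon, was at 6.31, 3.33 and 6.9 FPKM under IL-33 and 24.1, 9.78 and 17 under IL-33 + IL-27 (log2 difference 1.43 ± 0.19, adjusted p = 0.00425; lost in 1 of 9 leave-out fits, up to 0.0532 without replicate 1), a call that needed the block (adjusted p = 0.0922 without it). Stat3, which gp130 receptors activate, was at 127, 134 and 198 FPKM under IL-33 and 158, 168 and 216 under IL-33 + IL-27. It was higher in each pair, but its groups overlapped and the difference of 0.25 did not pass (adjusted p = 0.16).

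Of 8 tested interferon regulatory factors, 5 rose and 1 fell, and 3 of the rises and not the fall held without the block. The list held 4 rises and the fall without replicate 3, and 2 to 5 rises and 0 to 1 falls over all leave-out fits. Irf1 (chr11:53583516-53591876 on mm9), an interferon-induced factor that itself activates antigen presentation genes, was at 34.2, 27.4 and 92.8 FPKM under IL-33 and 389.6, 306 and 468 under IL-33 + IL-27 (log2 difference 3.07 ± 0.22, adjusted p = 0.000257). The lowest library with IL-27 stood well above the highest with IL-33. Irf8 was at 8.92, 8.87 and 4.6 FPKM under IL-33 and 60.2, 39.8 and 34.9 under IL-33 + IL-27. Irf9, the DNA-binding part of the type I interferon complex, was at 5.704, 7.399 and 8.9 FPKM under IL-33 and 24.1, 23.1 and 20.3 under IL-33 + IL-27. These 2 had differences of 2.45 and 1.51 (adjusted p = 0.000244 and 0.00471, the second lost in 1 of 9 leave-out fits, up to 0.057 without replicate 2). Irf4, which promotes cytokine expression in activated lymphocytes, moved the other way, from 33.4, 24.5 and 13.7 FPKM to 9.67, 6.24 and 7.1 (log2 difference -1.46 ± 0.21, adjusted p = 0.00688; lost in 2 of 9 leave-out fits, up to 0.105 without replicate 2; 0.092 without the block).

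Of 11 tested SOCS, PIAS and related genes, Socs1 and Usp18 rose and none fell, and neither was called without replicate 3. Socs1, an inhibitor of Janus kinases that restrains IFN-γ signalling, was at 8.01, 4.59 and 3.9 FPKM under IL-33 and 16.3, 14.7 and 14.2 under IL-33 + IL-27 (log2 difference 1.35 ± 0.26, adjusted p = 0.0202; lost in 7 of 9 leave-out fits, up to 0.152 without replicate 2). Its groups did not overlap. Usp18, which dampens type I interferon signalling, was at 2.596, 1.19 and 3.8 FPKM under IL-33 and 15.8, 14.3 and 20.9 under IL-33 + IL-27 (log2 difference 2.41 ± 0.32, adjusted p = 0.00472). Its call was lost in 2 of 9 leave-out fits, up to 0.0535 without replicate 3. Usp18 reached the filter only through the libraries with IL-27, so its direction was fixed by the filter. Socs3, the inhibitor that acts on gp130 receptors and a known STAT3 target, was at 30.3, 67.2 and 209 FPKM under IL-33 and 46.3, 74.7 and 163 under IL-33 + IL-27 (log2 difference 0.13 ± 0.20, adjusted p = 0.749). Socs3 varied more between replicate numbers than between the groups, and 2 pairs went up and 1 down.

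The promoters of 6 genes held the short letters that the STAT and IRF families are known to bind. The motifs searched were TTCNNNGAA, the palindrome of the gamma-activated site, and GAAANNGAAA on either strand, the core of the interferon-stimulated response element. In the RefSeq promoter table (GRCm38.p6, 32851 windows of 300 bases, from 250 bases before to 50 after the start), 8.30% of windows held the first and 3.44% the second. The 200 bases before each start are given 5′ to 3′ on the gene's strand, with the motif letters in capitals. Irf1, Gbp2, Irgm2, Icam1 and Socs1 rose, and Socs3 is shown beside them because it carries the first motif and was not called. A match is a description of the letters and does not show binding. The 6 genes were picked and do not stand for the called genes.
Irf1 (chr11:53769814-53770013, plus strand): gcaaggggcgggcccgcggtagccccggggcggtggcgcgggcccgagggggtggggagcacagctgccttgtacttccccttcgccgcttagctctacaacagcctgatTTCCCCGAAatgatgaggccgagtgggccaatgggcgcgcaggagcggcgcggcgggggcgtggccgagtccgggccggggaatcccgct
Gbp2 (chr3:142620463-142620662, plus strand): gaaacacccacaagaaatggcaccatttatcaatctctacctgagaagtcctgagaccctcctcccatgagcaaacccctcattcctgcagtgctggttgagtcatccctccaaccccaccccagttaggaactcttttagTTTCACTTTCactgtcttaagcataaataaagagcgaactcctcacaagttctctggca
Irgm2 (chr11:58214777-58214976, plus strand): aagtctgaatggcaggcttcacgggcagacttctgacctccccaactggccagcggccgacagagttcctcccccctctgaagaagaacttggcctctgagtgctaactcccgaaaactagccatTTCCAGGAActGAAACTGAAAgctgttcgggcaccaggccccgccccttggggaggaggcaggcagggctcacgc
Icam1 (chr9:21015740-21015939, plus strand): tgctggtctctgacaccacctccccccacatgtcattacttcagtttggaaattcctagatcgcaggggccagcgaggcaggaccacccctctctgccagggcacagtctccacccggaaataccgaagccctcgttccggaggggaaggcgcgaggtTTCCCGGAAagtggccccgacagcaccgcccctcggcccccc
Socs1 (chr16:10785537-10785736, minus strand): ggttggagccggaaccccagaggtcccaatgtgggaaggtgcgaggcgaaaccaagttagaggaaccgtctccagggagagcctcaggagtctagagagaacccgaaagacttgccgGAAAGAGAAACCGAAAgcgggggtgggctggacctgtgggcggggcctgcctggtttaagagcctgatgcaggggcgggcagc
Socs3 (chr11:117969367-117969566, minus strand): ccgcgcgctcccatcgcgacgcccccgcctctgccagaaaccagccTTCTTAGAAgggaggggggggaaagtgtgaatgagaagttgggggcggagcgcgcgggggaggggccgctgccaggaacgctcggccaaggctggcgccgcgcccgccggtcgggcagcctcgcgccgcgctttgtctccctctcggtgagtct

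The first motif began 90 bases before the start in Irf1, 75 in Irgm2, 42 in Icam1 and 154 in Socs3. The response element letters began 59 bases before the start in Gbp2, where they lie on the reverse strand, and 64 in Irgm2, shortly after its first motif. In Socs1 a pair of overlapping matches began 83 and 77 bases before the start. The Irf1 sequence is that of 1 of 2 listed starts, taken because it held a match, and the other start held neither motif. Matches and calls did not go together gene by gene. The windows of Nupr1, Csn1s1 and Gpr128, which fell, held the first motif, that of Gpr128 the second as well, and Il4, which was not called, held both among its 2 windows. The windows of Tap1, H2-K1, Psmb9 and Irf9, which rose, held neither motif, as did those of Cd34, Il9, Pdcd1, Areg, Il5 and Il13, which says only that these letters are not in those windows. The table matched 302 of the 394 higher genes (76.6%) and 80.2% of all tested genes, and no share over the called genes is given.

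Most members of the guanylate-binding and immunity-related GTPase families, which coat and break pathogen vacuoles inside cells, rose. Of 11 tested genes of the first list, 10 rose and none fell, with a median of 3.43 against 0.00 for all tested genes, and all 10 held without the block and in each of the 9 leave-out fits. Of these 11, 5 reached the filter only through the libraries with IL-27, so for those 5 a difference was fixed by the filter. Gbp7 was at 6.49, 9.43 and 10.3 FPKM under IL-33 and 67.1, 68.8 and 72.7 under IL-33 + IL-27 (log2 difference 2.88 ± 0.14, adjusted p = 3.06e-05). Gbp9 was at 3.49, 2.398 and 9.9 FPKM under IL-33 and 37.9, 21.4 and 52.8 under IL-33 + IL-27 (log2 difference 2.71 ± 0.19, adjusted p = 0.000218). Neither group's range touched the other's in these genes. Gbp6 was at 1.10, 2.43 and 4.3 FPKM under IL-33 and 129, 116 and 172 under IL-33 + IL-27 and Gbp10 at 0.994, 1.33 and 2.8 FPKM under IL-33 and 72.7, 67.8 and 105 under IL-33 + IL-27. They are closely related copies, and their split of reads is uncertain. Gbp1 had a value of 0 in every IL-33 library and reached 3.35, 3.92 and 8.8 FPKM with IL-27, too low to be tested.

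Of 7 tested immunity-related GTPases, 6 rose, with a median of 3.60, and 1 of the 7, Iigp1, reached the filter only through the libraries with IL-27. Igtp was at 33.5, 51.4 and 75.2 FPKM under IL-33 and 559, 583 and 745 under IL-33 + IL-27 (log2 difference 3.60 ± 0.15, adjusted p = 1.84e-05). Irgm2, whose promoter is among those printed, was at 13.5, 12.8 and 25.3 FPKM under IL-33 and 96.4, 96.3 and 131 under IL-33 + IL-27 (log2 difference 2.63 ± 0.12, adjusted p = 3.06e-05). Igtp was already well expressed with IL-33 alone, while Irgm2 started lower and rose less on the log2 scale. Tgtp1 and Tgtp2 share nearly all of their sequence. The near 0 value of Tgtp1 in the IL-33 library of replicate 2 (0.00429 FPKM, against 11.8 FPKM for Tgtp2) therefore leaves its difference of 6.41 uncertain.

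Antiviral genes rose as a group: 23 of 27 tested members were higher and none lower, with a median of 1.42, of which 6 passed the filter only through 1 group. Without the block 12 of them held, and between 13 and 20 held when libraries were left out (14 without replicate 3). Samhd1, which depletes the nucleotides that viruses need, was at 24.02, 41.2 and 94.6 FPKM under IL-33 and 119, 181 and 352 under IL-33 + IL-27 (log2 difference 2.09 ± 0.11, adjusted p = 4.15e-05). Each pair rose by a similar factor, but replicate numbers differed widely within each group and the call did not hold without the block (adjusted p = 0.15). Dtx3l, a ubiquitin ligase of the DNA damage and interferon responses, was at 11, 8.797 and 15.7 FPKM under IL-33 and 31.9, 41.6 and 68.2 under IL-33 + IL-27 (log2 difference 1.88 ± 0.15, adjusted p = 0.000504). Isg15, a ubiquitin-like modifier, was at 1.84, 5.06 and 7.3 FPKM under IL-33 and 24.3, 25.3 and 38.4 under IL-33 + IL-27 (log2 difference 2.51 ± 0.25, adjusted p = 0.00134). Isg15 reached the filter only through the libraries with IL-27, so its direction was fixed by the filter.

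Genes of MHC class I presentation, which displays peptides from inside the cell, rose from high starting levels: 20 of 24 tested members were higher and none lower, with a median of 1.43. The list held 14 rises without the block, 18 without replicate 3 and 14 to 20 over all leave-out fits. B2m, the light chain of every class I molecule, was at 2250.1, 2176 and 2682 FPKM under IL-33 and 6477, 6953 and 9250.3 under IL-33 + IL-27 (log2 difference 1.66 ± 0.09, adjusted p = 4.15e-05), a 3.16-fold difference with no overlap. H2-K1, a classical heavy chain, was at 664, 466 and 688 FPKM under IL-33 and 1676, 1448 and 2050.5 under IL-33 + IL-27 (log2 difference 1.51 ± 0.11, adjusted p = 0.000221). Tap1, part of the peptide transporter, was at 36.3, 31.2 and 66.7 FPKM under IL-33 and 173, 139 and 207 under IL-33 + IL-27. Tapbp, which loads peptide onto class I, was at 47.2, 50.8 and 98.5 FPKM under IL-33 and 270.0, 248 and 352 under IL-33 + IL-27, and both passed (differences 1.99 and 2.19, adjusted p = 0.000221 and 9.47e-05). Nlrc5, the class I transactivator, was at 11.5, 6.08 and 5.8 FPKM under IL-33 and 45.9, 18.2 and 28.4 under IL-33 + IL-27 (log2 difference 1.82 ± 0.16, adjusted p = 0.000672). The H2-Q and H2-T genes are closely similar to each other, so their separate values, such as 102, 65.98 and 76.4 FPKM under IL-33 and 385, 225 and 278 under IL-33 + IL-27 for H2-Q4, are uncertain.

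Of 8 proteasome genes, 5 rose: the 3 catalytic subunits of the immunoproteasome, Psmb8, Psmb9 and Psmb10, and both subunits of its activator, Psme1 and Psme2. Psmb9 was at 35.5, 35.6 and 46.6 FPKM under IL-33 and 190.2, 192 and 243 under IL-33 + IL-27 (log2 difference 2.38 ± 0.09, adjusted p = 9.25e-06). Psmb10 was at 23.8, 35.8 and 42.3 FPKM under IL-33 and 124, 135 and 204 under IL-33 + IL-27 (log2 difference 2.15 ± 0.13, adjusted p = 9.47e-05). By contrast Psmb7, the constitutive counterpart of Psmb10, was at 235, 346 and 215 FPKM under IL-33 and 245, 289 and 234 under IL-33 + IL-27 (difference -0.02, adjusted p = 0.921), with overlapping groups. All 5 held without the block, and 4 or 5 held with libraries left out.

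Class II presentation, the display of peptides taken up from outside, was low. Of 14 listed genes 6 were tested, and Ctss, H2-DMa and Cd74 rose, the first and the last also without the block (1 to 3 over all leave-out fits). Ctss, the protease that trims the invariant chain, was at 1.77, 3.24 and 4.4 FPKM under IL-33 and 40.3, 34 and 44.3 under IL-33 + IL-27 (log2 difference 3.34 ± 0.27, adjusted p = 0.000512), with no overlap. Ctss reached the filter only through the libraries with IL-27, so its direction was fixed by the filter. Cd74, the invariant chain itself, was at 4.99, 6.39 and 10.8 FPKM under IL-33 and 33.6, 23.8 and 15.5 under IL-33 + IL-27 (log2 difference 1.59 ± 0.32, adjusted p = 0.0273; lost in 6 of 9 leave-out fits, up to 0.212 without replicate 2). Ciita, the class II transactivator, did not exceed 0.800 FPKM in these 6 libraries. Ifi30, a reductase of endosomes, was at 69.3, 65.8 and 46.4 FPKM under IL-33 and 49.1, 56.3 and 28.5 under IL-33 + IL-27 (difference -0.47, adjusted p = 0.11).

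In smaller interferon-type families some members rose and none fell. Of 14 TRIM ubiquitin ligases, of which 2 passed the filter only through 1 group, 8 rose (3 without the block, 5 without replicate 3, 3 to 7 over all leave-out fits). Trim30a led them at 14.3, 13.2 and 26.4 FPKM under IL-33 and 46.4, 52.1 and 76.6 under IL-33 + IL-27 (log2 difference 1.68 ± 0.13, adjusted p = 0.000393). Of 10 PYHIN and Schlafen genes, 4 rose (1 without the block, 3 to 4 over all leave-out fits) and 3 lay below 0. Slfn8 was at 13.02, 12.7 and 16.1 FPKM under IL-33 and 42.3, 37.5 and 40.3 under IL-33 + IL-27 (log2 difference 1.46 ± 0.17, adjusted p = 0.00236). The surface antigen Ly6a, also called Sca-1 and used to sort ILC2s, was at 1094, 1499 and 1583 FPKM under IL-33 and 3478, 3806 and 3996 under IL-33 + IL-27 (log2 difference 1.45 ± 0.10, adjusted p = 0.000182). Ly6c1, a related antigen, was at 143, 235 and 197 FPKM under IL-33 and 534, 601 and 635 under IL-33 + IL-27 (log2 difference 1.64 ± 0.12, adjusted p = 0.000251). In both Ly6 genes the groups did not overlap. Ly6c2, which also marks monocytes, rose as well (from 5.11, 16.4 and 5.0 FPKM to 29.4, 34.3 and 36.3, adjusted p = 0.00917, and 0.0552 without the block; lost in 4 of 9 leave-out fits, up to 0.0761 without replicate 1), while the other 12 macrophage and monocyte markers summed to 3.30 to 10.3 FPKM with IL-33 and 1.16 to 18.4 with IL-27. Ms4a4b had a value of 0 in every IL-33 library and reached 7.34, 9.72 and 25.6 FPKM with IL-27, so no fold is given.

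**Figure D3:**
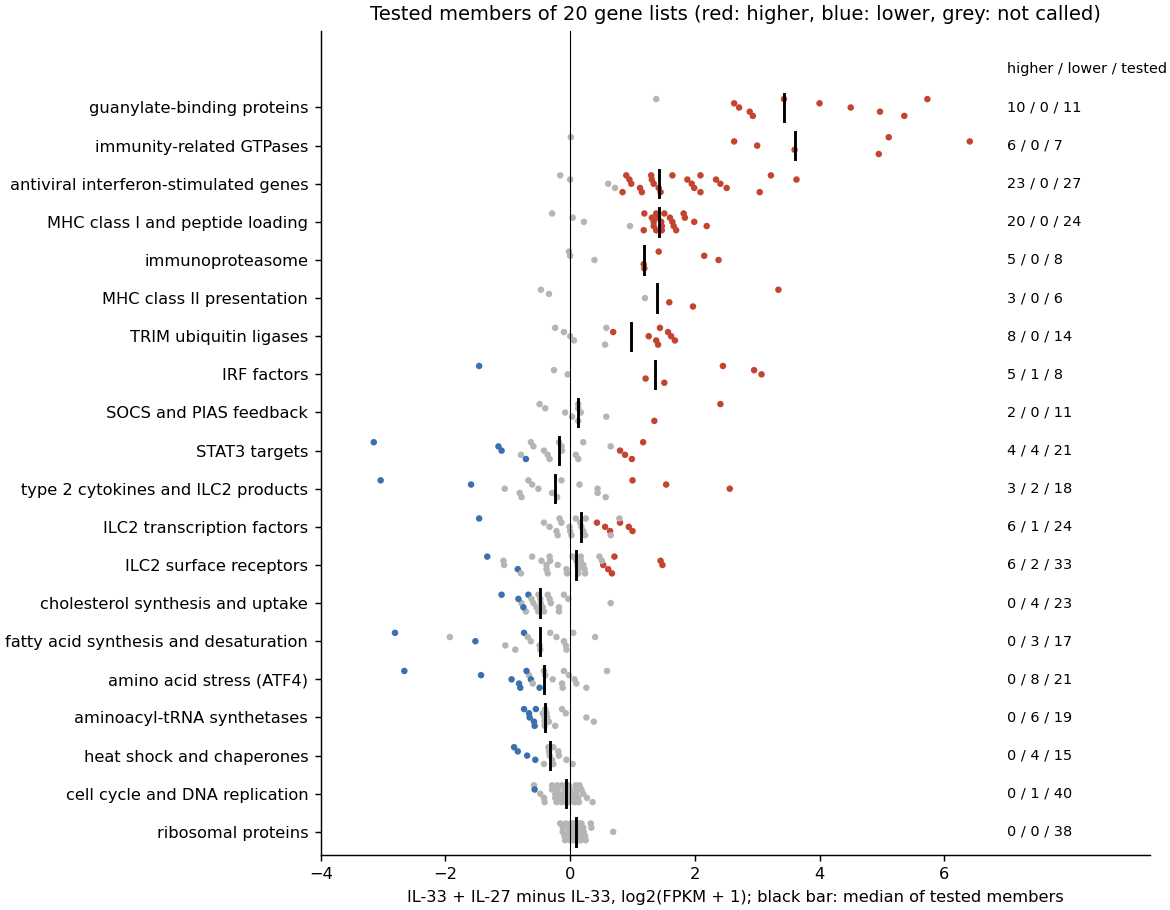
Differences of the tested members of 20 gene lists between IL-33 + IL-27 and IL-33 (horizontal axis, log2(FPKM + 1)). Each point is a gene, red where called higher, blue where called lower and grey otherwise, black bars mark the medians, and the figures at the right give the numbers higher, lower and tested. Guanylate-binding proteins (median 3.43) and immunity-related GTPases (3.60) lie farthest to the right, 6 of their 18 genes having reached the filter only through the libraries with IL-27, while ribosomal proteins (0.10) and cell cycle genes (-0.07) lie around 0.

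Type 2 products went in different directions. Of 18 tested members of that list, Areg, Calca and Csf1 rose and Il9 and Cxcl3 fell (median -0.25). These were 16.7% and 11.1% of the list, against 4.70% and 2.80% of all tested genes. Of these 5 calls that of Areg held without the block. The list held 2 rises and no fall without replicate 3, and 1 to 3 rises and 0 to 3 falls over all leave-out fits. Il5 (chr11:53534296-53538608 on mm9), the eosinophil growth factor, was at 9222, 5587 and 6141 FPKM under IL-33 and 4377, 4717 and 5254 under IL-33 + IL-27 (log2 difference -0.51 ± 0.26, adjusted p = 0.287). Il13, which acts on epithelium and smooth muscle, was at 11034, 6582 and 5428 FPKM under IL-33 and 5637, 4918 and 3975 under IL-33 + IL-27 (log2 difference -0.61 ± 0.23, adjusted p = 0.164). Both were lower with IL-27 in each of the 3 pairs, and the highest IL-33 library was that of replicate 1 for both genes. For Il13 the groups overlapped, for Il5 they did not, and neither difference passed; a fit on the 6 libraries alone gave Il13 an adjusted p of 0.0481 and Il5 one of 0.164. Il4 was at 25.4, 27.9 and 32.6 FPKM under IL-33 and 23.2, 41.9 and 60.2 under IL-33 + IL-27, and Csf2 was at 2145, 715 and 426 FPKM under IL-33 and 1165, 702 and 512 under IL-33 + IL-27. Neither had 1 direction in all pairs (adjusted p = 0.217 and 0.779).

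Il9 (chr13:56580638-56583607 on mm9), which encodes an autocrine survival factor of ILC2s, was at 2029, 233 and 305 FPKM under IL-33 and 106, 44.9 and 52.2 under IL-33 + IL-27 (log2 difference -3.04 ± 0.67, adjusted p = 0.0358; lost in 7 of 9 leave-out fits, up to 0.168 without replicate 2). The IL-33 library of replicate 1 was far above the others, but the lowest IL-33 library was still above the highest with IL-27. That call did not hold without the block (adjusted p = 0.103). Cxcl3, a neutrophil attractant, was at 287, 98.96 and 68.1 FPKM under IL-33 and 65.03, 38.6 and 26.8 under IL-33 + IL-27 (log2 difference -1.59 ± 0.38, adjusted p = 0.0458; lost in 8 of 9 leave-out fits, up to 0.17 without the IL-27 library of replicate 2).

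Areg (chr5:91568641-91577458 on mm9), the tissue repair factor amphiregulin, rose most of the type 2 products. It was at 104, 62.7 and 79.6 FPKM under IL-33 and 425, 461 and 557 under IL-33 + IL-27 (log2 difference 2.56 ± 0.35, adjusted p = 0.0051; lost in 1 of 9 leave-out fits, up to 0.0986 without replicate 2). Its 5.88-fold difference left a wide gap between the groups, and the call held without the block (adjusted p = 0.0135). Calca, which encodes the neuropeptide CGRP, was at 151, 150.5 and 413 FPKM under IL-33 and 262, 323 and 897 under IL-33 + IL-27 (log2 difference 1.00 ± 0.15, adjusted p = 0.0083; lost in 3 of 9 leave-out fits, up to 0.129 without replicate 2). It was higher within each pair while its groups overlapped, and without the block it did not pass (adjusted p = 0.692). Csf1, a macrophage growth factor, was at 1.98, 2.28 and 2.4 FPKM under IL-33 and 11.7, 4.85 and 10.0 under IL-33 + IL-27 (log2 difference 1.54 ± 0.28, adjusted p = 0.0177, and 0.0522 without the block). Its call was lost in 3 of 6 leave-out fits, up to 0.151 without replicate 3. Csf1 reached the filter only through the libraries with IL-27, so its direction was fixed by the filter.

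**Figure D4:**
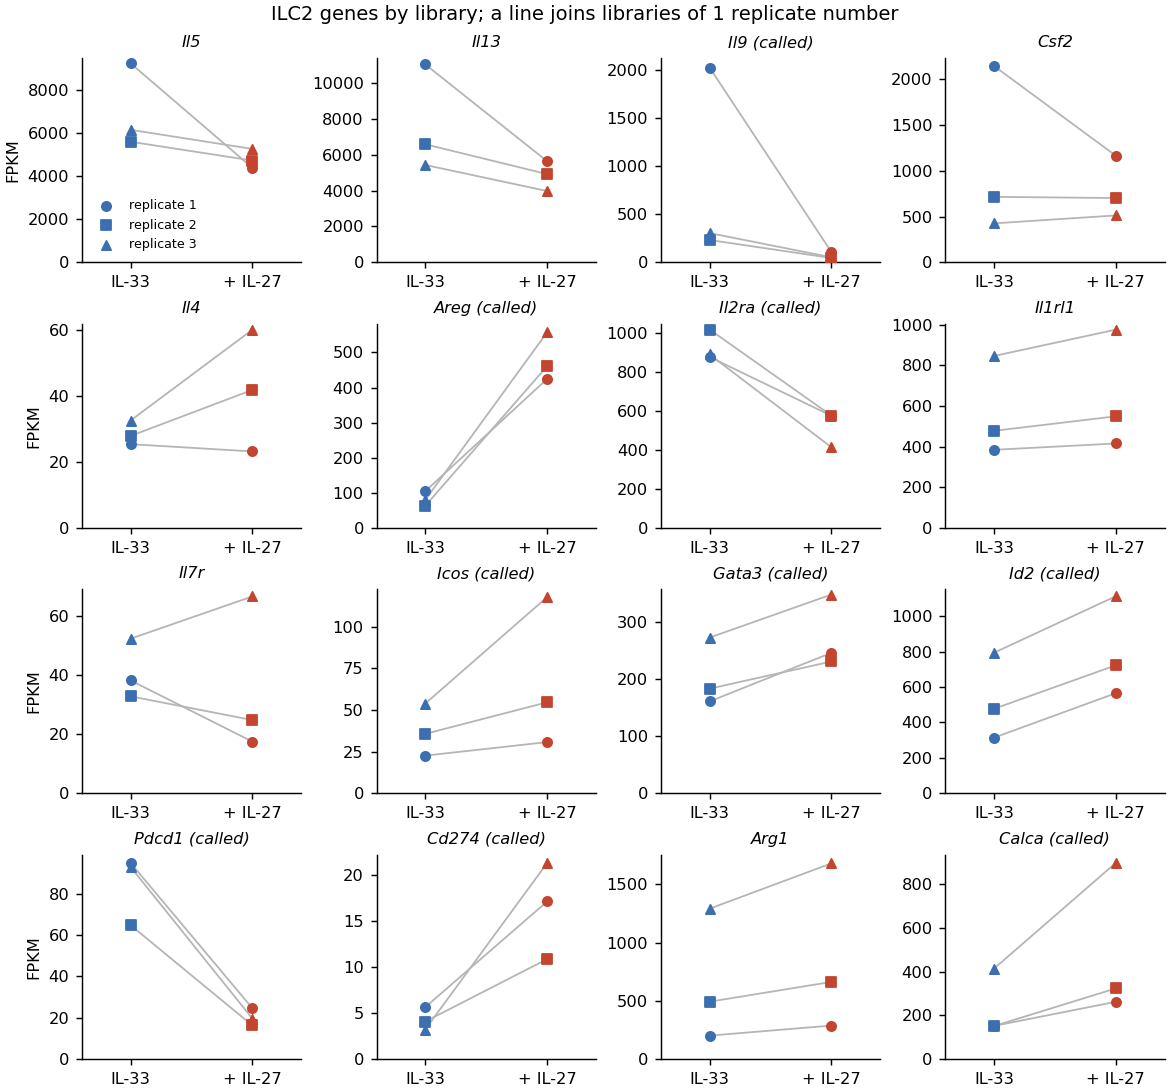
Levels of 16 ILC2 genes in each library (vertical axes, FPKM from 0) with IL-33 (blue) and IL-33 + IL-27 (red); marker shapes give the replicate number and grey lines join libraries of 1 number. Areg and Pdcd1 separate completely, Il9 falls from 233 to 2029 FPKM down to 44.9 to 106, and Il5 and Il13 decline in each pair without passing the test.

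Differences of the ILC2 transcription factors ran from -1.46 for Irf4 to 1.00, with a median of 0.17. Of 24 tested, 6 rose (Id2, Bcl11b, Ets1, Zbtb7b, Ikzf2 and Gata3) and Irf4 fell (25.0% and 4.17%, against 4.70% and 2.80% of all tested genes). None of these 7 held without the block. With libraries left out, between 0 and 2 of the list's genes were called higher, and without replicate 3 none was, while Irf4 still fell. Gata3, the factor that defines type 2 lymphocytes, was at 161, 183 and 272 FPKM under IL-33 and 246, 231 and 348 under IL-33 + IL-27 (log2 difference 0.43 ± 0.10, adjusted p = 0.048; lost in 9 of 9 leave-out fits, up to 0.246 without replicate 2). Id2, required for all innate lymphoid cells, was at 314, 477 and 793 FPKM under IL-33 and 565, 722 and 1112 under IL-33 + IL-27 (log2 difference 0.64 ± 0.11, adjusted p = 0.0134; lost in 7 of 9 leave-out fits, up to 0.16 without replicate 2). The differences were 1.35-fold and 1.56-fold and positive in every pair, while the replicate 3 libraries were highest in both groups and the groups overlapped. Rora, the other defining factor, was at 27.5, 29.7 and 64.7 FPKM under IL-33 and 26.5, 36.2 and 77.6 under IL-33 + IL-27 (adjusted p = 0.61).

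Of 33 tested surface receptors, 6 rose and 2 fell (18.2% and 6.06%, against 4.70% and 2.80% of all tested genes). These counts were 1 and 0 without the block, 3 and 1 without replicate 3, and 1 to 4 and 1 to 3 over all leave-out fits. Il1rl1, which encodes the IL-33 receptor ST2, was at 384, 478 and 846 FPKM under IL-33 and 415, 549 and 976 under IL-33 + IL-27 (log2 difference 0.17 ± 0.11, adjusted p = 0.382). Il7r, a chain of the IL-7 receptor, was at 38.2, 32.8 and 52.3 FPKM under IL-33 and 17.5, 24.8 and 66.6 under IL-33 + IL-27 (adjusted p = 0.451). Il2ra, the high-affinity chain of the IL-2 receptor, was at 877, 1018 and 889.9 FPKM under IL-33 and 575, 576 and 413 under IL-33 + IL-27 (log2 difference -0.84 ± 0.11, adjusted p = 0.00401; lost in 1 of 9 leave-out fits, up to 0.0974 without replicate 2). All 3 libraries with IL-27 were below all 3 without it, though the unblocked adjusted p was 0.0639. Icos, a costimulatory receptor, was at 22.7, 35.7 and 53.9 FPKM under IL-33 and 30.8, 54.7 and 118 under IL-33 + IL-27 (log2 difference 0.71 ± 0.15, adjusted p = 0.0322; lost in 8 of 9 leave-out fits, up to 0.196 without replicate 2). Nmur1, the receptor through which neurons activate ILC2s, was at 22.1, 44.98 and 199 FPKM under IL-33 and 78.3, 153 and 376 under IL-33 + IL-27 (log2 difference 1.48 ± 0.22, adjusted p = 0.00757; lost in 2 of 9 leave-out fits, up to 0.124 without replicate 2; 0.606 without the block). Cxcr6, a homing receptor, was at 427, 518 and 602 FPKM under IL-33 and 746, 749 and 843 under IL-33 + IL-27 (log2 difference 0.61 ± 0.09, adjusted p = 0.00747; lost in 2 of 9 leave-out fits, up to 0.123 without replicate 2; 0.158 without the block). Ccr4, another, was at 123, 54.1 and 45.3 FPKM under IL-33 and 38.4, 26.3 and 17.4 under IL-33 + IL-27 (log2 difference -1.33 ± 0.22, adjusted p = 0.0113; lost in 6 of 9 leave-out fits, up to 0.0969 without replicate 3; 0.284 without the block). Klrg1, a marker of mature ILC2s, was at 159, 208 and 277 FPKM under IL-33 and 181, 222 and 355 under IL-33 + IL-27 (adjusted p = 0.299).

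Checkpoint genes changed in both directions. Pdcd1 (chr1:95934884-95949130 on mm9), the inhibitory receptor PD-1, was at 94.9, 64.7 and 92.9 FPKM under IL-33 and 24.5, 16.2 and 19.5 under IL-33 + IL-27 (log2 difference -2.01 ± 0.20, adjusted p = 0.0014), a 4.04-fold lower level with no overlap. Cd274, its ligand PD-L1, was at 5.63, 4.07 and 3.2 FPKM under IL-33 and 17.1, 10.9 and 21.3 under IL-33 + IL-27 (log2 difference 1.70 ± 0.29, adjusted p = 0.0134). Its call was lost in 5 of 9 leave-out fits, up to 0.0789 without replicate 1. Cd274 reached the filter only through the libraries with IL-27, so its direction was fixed by the filter. Il10ra, a chain of the IL-10 receptor, was at 32.8, 17.6 and 41.4 FPKM under IL-33 and 11.9, 7.93 and 9.1 under IL-33 + IL-27 (log2 difference -1.50 ± 0.20, adjusted p = 0.00498; lost in 1 of 9 leave-out fits, up to 0.0546 without replicate 1; 0.0501 without the block). Il10 was too low to be tested, at 0.923, 1.69 and 1.8 FPKM under IL-33 and 0, 0 and 0.9 under IL-33 + IL-27. Of the 14 tested genes of this list 3 rose and 3 fell (21.4% each, against 4.70% and 2.80% of all tested genes). These counts were 2 and 2 without replicate 3, and 0 to 2 and 2 to 3 over all leave-out fits. The fall of Pdcd1 was the 1 call that held without the block.

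Among 8 tested type 1 lymphocyte genes, Ccl5, Ifng and Il12rb1 rose and none fell (37.5% higher, against 4.70% of all tested genes). The list held 2 rises without the block, 2 without replicate 3 and 1 to 3 over all leave-out fits. Ccl5, a chemokine of activated lymphocytes, was at 6.22, 2.85 and 6.1 FPKM under IL-33 and 391, 145 and 127 under IL-33 + IL-27 (log2 difference 5.06 ± 0.28, adjusted p = 6.38e-05). Ifng was at 0, 0 and 1.0 FPKM under IL-33 and 27.8, 12.1 and 8.6 under IL-33 + IL-27 (log2 difference 3.61 ± 0.47, adjusted p = 0.00413; lost in 1 of 8 leave-out fits, up to 0.0738 without replicate 2). It was at or near the detection limit with IL-33 alone and above it in all 3 libraries with IL-27. Ifng reached the filter only through the libraries with IL-27, so its direction was fixed by the filter. Il12rb1, a shared chain of the IL-12 and IL-23 receptors, was at 103, 45.4 and 65 FPKM under IL-33 and 205, 144 and 219 under IL-33 + IL-27 (log2 difference 1.46 ± 0.20, adjusted p = 0.005; lost in 2 of 9 leave-out fits, up to 0.0929 without replicate 2; 0.0513 without the block). Tbx21, which encodes T-bet, was below the filter at 0.433, 0 and 0 FPKM under IL-33 and 8.35, 2.38 and 0.8 under IL-33 + IL-27, and Gzma and Gzmb were listed at 0. Markers of NK cells and ILC1s summed to at most 0.600 FPKM with IL-33 and 0.800 with IL-27.

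Adhesion genes included clear falls. Itga4, the α4 integrin chain, was at 48.2, 87.1 and 75 FPKM under IL-33 and 20.4, 27.1 and 23.2 under IL-33 + IL-27 (log2 difference -1.50 ± 0.13, adjusted p = 0.000709), with no overlap. Itgb7, a β chain that pairs with α4, was at 105, 141 and 293 FPKM under IL-33 and 265, 312 and 583 under IL-33 + IL-27 (log2 difference 1.15 ± 0.15, adjusted p = 0.00396; lost in 1 of 9 leave-out fits, up to 0.0738 without replicate 2; 0.315 without the block), so the partners moved in opposite directions. Gpr128, an adhesion-type receptor, was at 30.1, 17.5 and 22.9 FPKM under IL-33 and 7.02, 5.597 and 5.8 under IL-33 + IL-27 (log2 difference -1.75 ± 0.19, adjusted p = 0.0018). Icam1, an adhesion ligand, was at 28.3, 25.5 and 21.5 FPKM under IL-33 and 78.6, 54.7 and 44.1 under IL-33 + IL-27 (log2 difference 1.17 ± 0.15, adjusted p = 0.00425; lost in 1 of 9 leave-out fits, up to 0.0736 without replicate 2). In all, 3 of 13 tested homing genes rose and 4 fell (23.1% and 30.8%, against 4.70% and 2.80% of all tested genes), and 1 and 3 of these held without the block. The list held 2 rises and 3 falls without replicate 3, and 0 to 3 rises and 3 falls over all leave-out fits. Of 17 TNF family genes, of which 2 passed the filter only through 1 group, Ltb, Cd27 and Fas rose and Tnfrsf8 fell (17.6% and 5.88%, against 4.70% and 2.80% of all tested genes). The list held 1 rise without the block, 3 rises without replicate 3, and 1 to 4 rises and 0 to 2 falls over all leave-out fits. Ltb, a builder of lymphoid tissue, was at 2.28, 7.31 and 14.6 FPKM under IL-33 and 47.5, 36.6 and 84.3 under IL-33 + IL-27 (log2 difference 2.84 ± 0.31, adjusted p = 0.00189).

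Known STAT3 targets showed no common direction: of 21 tested, 4 rose and 4 fell, with a median of -0.18 (19.0% each, against 4.70% and 2.80% of all tested genes). The list held 1 rise and no fall without the block, 1 and 2 without replicate 3, and 1 to 3 and 0 to 3 over all leave-out fits. Bcl3, an atypical IκB protein, was at 57.98, 76.2 and 70.7 FPKM under IL-33 and 117, 113 and 127 under IL-33 + IL-27. The kinase Pim1 was at 87.97, 118 and 122 FPKM under IL-33 and 226, 189 and 235 under IL-33 + IL-27. These 2 genes had differences of 0.80 and 0.99 (adjusted p = 0.0134 and 0.0126, and 0.121 and 0.0821 without the block), and they were lost in 7 and 6 of the 9 leave-out fits. The related kinase Pim2 went the other way, from 65.9, 41.05 and 26.7 FPKM to 32, 17.8 and 10.5 (log2 difference -1.15 ± 0.15, adjusted p = 0.00401; lost in 1 of 9 leave-out fits, up to 0.0894 without replicate 2; 0.517 without the block). Batf and Junb differed by -0.14 and -0.18 (adjusted p = 0.686 and 0.587). Of 13 NF-κB genes 5 rose, among them the inhibitors Tnfaip3, Nfkbie and Tnip1, and Rel, an activating subunit, fell from 60.7, 24.3 and 17.3 FPKM to 16.03, 12.1 and 7.3 (adjusted p = 0.0218; 0.267 without the block; lost in 6 of 9 leave-out fits, up to 0.115 without replicate 2). The rises and the fall were 38.5% and 7.69% of the NF-κB list, against 4.70% and 2.80% of all tested genes. Of these 6 NF-κB calls, 1 held without the block, and without replicate 3 the list held 2 rises and no fall. Over all leave-out fits it held 0 to 4 rises and 0 to 1 falls.

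Some genes of biosynthesis and protein folding fell, by smaller factors. Of the 25 falls in the 5 lists that follow, 1 held without the block. Of 23 cholesterol genes, of which 2 passed the filter only through 1 group, 4 fell (median -0.48). Idi1, an isomerase of the pathway, was at 118, 105 and 76.8 FPKM under IL-33 and 47.6, 55.3 and 35.4 under IL-33 + IL-27 (log2 difference -1.10 ± 0.12, adjusted p = 0.00189), and its groups did not overlap. Of 17 fatty acid genes, of which 3 passed the filter only through 1 group, 3 fell (median -0.49). Scd2, a desaturase, was at 117, 120.4 and 282 FPKM under IL-33 and 32.7, 68.1 and 72 under IL-33 + IL-27 (log2 difference -1.52 ± 0.26, adjusted p = 0.0131; lost in 6 of 9 leave-out fits, up to 0.105 without replicate 3). Of 21 genes of the ATF4 amino acid response, of which 1 passed the filter only through 1 group, 8 fell (median -0.42). Asns, asparagine synthetase, was at 21.8, 28.1 and 29.7 FPKM under IL-33 and 6.59, 10.3 and 11.2 under IL-33 + IL-27 (log2 difference -1.43 ± 0.16, adjusted p = 0.00218), and this was the fall that held without the block (adjusted p = 0.0336). Psat1, of serine synthesis, was at 117, 136 and 104 FPKM under IL-33 and 68.7, 85.5 and 52.4 under IL-33 + IL-27 (log2 difference -0.80 ± 0.12, adjusted p = 0.00749; lost in 2 of 9 leave-out fits, up to 0.0992 without replicate 2). Of 19 aminoacyl-tRNA synthetases 6 fell (median -0.41). Gars, of glycine, was at 127, 141 and 121 FPKM under IL-33 and 86.3, 104 and 71.8 under IL-33 + IL-27 (log2 difference -0.58 ± 0.11, adjusted p = 0.0173; lost in 8 of 9 leave-out fits, up to 0.138 without replicate 2). Of 15 heat shock and chaperone genes 4 fell (median -0.33). Hspd1, a mitochondrial chaperonin, was at 704, 791 and 460.2 FPKM under IL-33 and 408, 429.9 and 225 under IL-33 + IL-27 (log2 difference -0.90 ± 0.09, adjusted p = 0.0011; lost in 1 of 9 leave-out fits, up to 0.0512 without replicate 2), with no overlap. None of the genes in these 5 lists rose, and 2.80% of all tested genes fell. With libraries left out the falls numbered at most 2, 3, 5, 1 and 3 in that order, and at least 1, 0, 1, 0 and 0. Without replicate 3 they numbered 1, 0, 1, 0 and 3.

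Of the cell cycle list 2.5% was lower and none higher, against 2.80% and 4.70% of all tested genes. Of 40 cell cycle genes, Cdc20 fell (from 88.8, 109 and 82.5 FPKM to 54.2, 81.4 and 54.8, adjusted p = 0.0427, and 0.509 without the block; lost in 9 of 9 leave-out fits, up to 0.188 without replicate 2) and none rose, with a median of -0.07. Mki67, a marker of dividing cells, was at 103, 134 and 95.8 FPKM under IL-33 and 70.9, 104 and 75.9 under IL-33 + IL-27 (log2 difference -0.41 ± 0.17, adjusted p = 0.212). None of 38 ribosomal protein genes was called (median 0.10). Of 23 glycolysis genes 1 fell (4.35%), and none without replicate 3. This was Slc16a1, a lactate carrier (adjusted p = 0.0445, and 0.655 without the block). Its call was lost in 9 of 9 leave-out fits, up to 0.218 without replicate 2. The median of the glycolysis list was -0.12, and 0.07 without replicate 3. Of 36 respiratory chain genes 4 small subunits rose (11.1%, against 4.70% of all tested genes). None rose without the block, 1 without replicate 3 and 1 to 3 over all leave-out fits. Ndufa1 led them at 17.6, 45.1 and 31.2 FPKM under IL-33 and 49.98, 109.6 and 103 under IL-33 + IL-27 (log2 difference 1.47 ± 0.17, adjusted p = 0.00272; 0.186 without the block). Among 23 genes of cell death, of which 2 passed the filter only through 1 group, 6 were higher and 0 lower (26.1% higher, against 4.70% of all tested genes). The list held 3 higher genes without the block, 4 without replicate 3 and 1 to 5 over all leave-out fits. Gsdmd, the pore of pyroptosis, was at 12.3, 11.8 and 19.8 FPKM under IL-33 and 36.7, 34.4 and 52.7 under IL-33 + IL-27 (log2 difference 1.45 ± 0.16, adjusted p = 0.00219; 0.0615 without the block). Casp1, which cleaves it, was at 41.9, 42.7 and 55.9 FPKM under IL-33 and 102, 92.5 and 102 under IL-33 + IL-27 (log2 difference 1.07 ± 0.13, adjusted p = 0.00273; lost in 1 of 9 leave-out fits, up to 0.0605 without replicate 2). Ido1, which degrades tryptophan, was at 0, 1.38 and 0 FPKM under IL-33 and 16.03, 17.2 and 21.4 under IL-33 + IL-27 (log2 difference 3.84 ± 0.58, adjusted p = 0.00763). Its call was lost in 2 of 9 leave-out fits, up to 0.0685 without replicate 1. Ido1 reached the filter only through the libraries with IL-27, so its direction was fixed by the filter. Ctsh, a cathepsin, was at 1.43, 4.59 and 9.2 FPKM under IL-33 and 13.8, 20.4 and 50.2 under IL-33 + IL-27 (log2 difference 2.29 ± 0.20, adjusted p = 0.000672; 0.137 without the block).

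IL-27 and IFN-γ were compared directly, since their differences from IL-33 share the same 3 IL-33 libraries. Of 8379 genes, 25 differed between IL-33 + IL-27 and IL-33 + IFN-γ (0.298%), of which 17 were higher and 8 lower with IL-27, while 1044 had an unadjusted p under 0.05. This count depended on the block and on each replicate number: it was 0 without the block, 0 without replicate 1, 1 without replicate 2 and 2 without replicate 3. Of the 25 genes, Hs3st1 alone was called in any of these 4 fits (without replicate 3), so each direct call named here was lost in all of them in which the gene was tested. Among interferon-type genes, Gbp2 was at 858, 1198 and 2056 FPKM with IFN-γ, Gbp10 at 152, 178 and 358, Ccl5 at 893, 605 and 794 and Cxcl10, a chemokine attracting type 1 cells, at 218, 163 and 126. All 4 were lower with IL-27, with log2 differences (IL-27 minus IFN-γ) of -1.07, -1.39, -1.96 and -4.38 (adjusted p = 0.026, 0.0236, 0.0472 and 0.0317). Cxcl10 was at 2.27, 0 and 1.1 FPKM under IL-33 and 37.99, 2.08 and 3.2 under IL-33 + IL-27 and was not called against IL-33 (adjusted p = 0.0726). It was chosen after its values were seen. The differences between IL-27 and IFN-γ in Irf1 and Socs1 did not pass (adjusted p = 0.511 and 0.102).

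Other genes were higher with IL-27 than with IFN-γ, and Pim2 was lower. Socs3 was at 10.4, 20.9 and 38.5 FPKM with IFN-γ, below its partner library with IL-27 in each pair (IL-27 minus IFN-γ 1.96, adjusted p = 0.0189). Il1rl1 was at 253, 303 and 435 FPKM with IFN-γ (IL-27 minus IFN-γ 0.91, adjusted p = 0.026). For both genes the IL-27 difference from IL-33 was not called (0.13 and 0.17), and the IFN-γ difference was (-1.83 and -0.74). Tnfrsf8, which encodes CD30, was at 54.9, 96.4 and 118 FPKM under IL-33 and 31.6, 33.3 and 57.9 under IL-33 + IL-27 (adjusted p = 0.00779; 0.335 without the block; lost in 2 of 9 leave-out fits, up to 0.108 without replicate 2) and at 5.89, 10.99 and 16.3 with IFN-γ, lower with IFN-γ than with IL-27 (IL-27 minus IFN-γ 1.84, adjusted p = 0.0189). Pim2 was at 144, 68.2 and 35.4 FPKM with IFN-γ against 32, 17.8 and 10.5 with IL-27 (IL-27 minus IFN-γ -1.89, adjusted p = 0.0149), and its differences from IL-33 were 0.74 and -1.15. Ccr2, a chemokine receptor, and Gatsl3 were called higher with IL-27 against IL-33 (1.27 and 1.10), with overlapping groups and calls lost without the block (adjusted p = 0.666 and 0.689) and without replicate 2 (0.0582 and 0.0634). They differed from IFN-γ by 1.06 and 1.14 (adjusted p = 0.0463 and 0.0314). Both were chosen after their values were seen.

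For the type 2 cytokines the IFN-γ libraries held 1656, 2183 and 3450.0 FPKM of Il5 and 2511, 3132 and 3348 of Il13, all below the matching libraries with IL-27. The direct differences were 1.04 and 0.69 and did not pass (adjusted p = 0.168 and 0.286), although the IFN-γ differences from IL-33 were called (-1.55 and -1.30) and the IL-27 differences were not. So Il5 and Il13 are not shown to answer the cytokines differently. With IFN-γ, Il9 was at 36.5, 42.5 and 108 FPKM and Areg at 216, 327 and 777 (adjusted p = 0.95 and 0.769 for the direct differences).

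**Figure D5:**
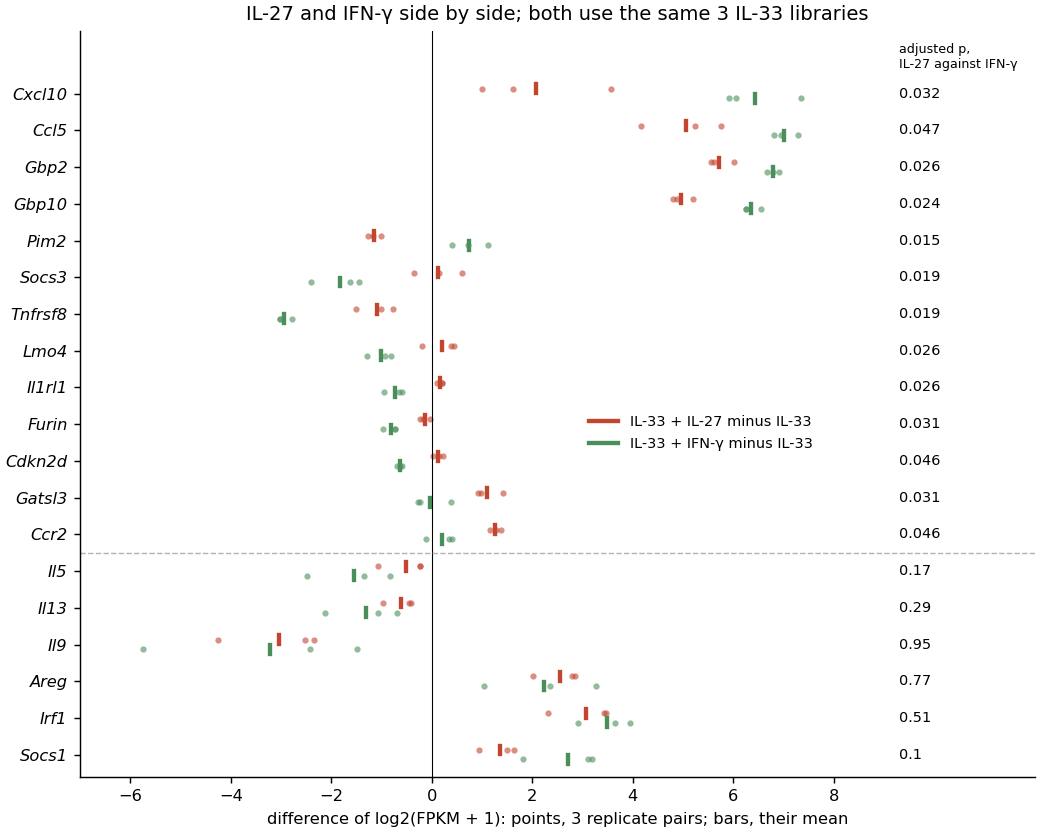
Paired differences from IL-33 (horizontal axis, log2(FPKM + 1)) for IL-33 + IL-27 (red) and IL-33 + IFN-γ (green) in 19 genes; points are the 3 replicate pairs, bars their mean, and the column at the right gives the adjusted p of IL-27 against IFN-γ. The 13 genes above the dashed line differ directly in the fit with the block, and none of them without the block, among them Socs3 (0.13 against -1.83) and Il1rl1 (0.17 against -0.74), and the 6 below it do not pass.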

How the data were processed

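RNA-seq of cultured ILC2s gave 9 deposited tables, 1 per library, with 1 value per gene symbol. The submitters' processing notes name Bowtie2 2.1.0, TopHat2 2.0.8, Cufflinks 2.1.1 and the build mm9, without roles or parameters. The deposited values were read as FPKM made by the authors, from the Cufflinks-style header word and from sums that differ between libraries (628625 to 672534), since the tables do not write the unit. FPKM is not a count, so no count model was used. From the deposited FPKM, log2(FPKM + 1) was fitted with limma 3.58.1 (R 4.3.3) over all 9 libraries, with group and replicate number as terms (two-sided, Benjamini-Hochberg over 8379 genes). Variances were moderated toward a trend over all tested genes, with 4 residual and 3.78 prior degrees of freedom. The script was tested on simulated data.

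Whether replicate numbers pair the libraries was checked by correlating deviations from the group means: the 9 same-number pairs gave 0.113 to 0.385 and the 18 other pairs -0.329 to -0.0065. With genes of at least 20 FPKM alone, the same-number pairs gave 0.0365 to 0.363 and the others -0.324 to 0.0799, so the ranges overlapped there. The genes named were the 12 higher and 12 lower genes with the largest smallest paired difference, a fixed set of IL-27, ILC2 and checkpoint genes, and of each gene list the 4 called members with the smallest adjusted p and the 2 most abundant; an item that this rule names is not reported here, and others are marked as chosen after their values were seen. The comparison, members and gene lists were chosen with earlier results of these data known. The settings tried for the direct comparison of IL-27 with IFN-γ were added after seeing the data. Coordinates come from GENCODE on mm9 and promoter sequences from RefSeq (GRCm38.p6); sequences were matched by symbol. Where genes share sequence, the authors' assignment of reads is not given in the sources used here.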

Additional observations from a re-analysis of the deposited data

How the results depend on the processing

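No gene called in the fit reported changed sign under any setting tried. The replicate block mattered most: without it 107 genes were higher and 14 lower, and with the 6 libraries of the comparison alone the counts were 281 and 137 with the block and 62 and 11 without it. All 107 and 14 were among the 394 and 235 reported. The pairing by replicate number rests on the check of deviations and not on a stated shared mouse or day. Leaving out 1 library or 1 replicate number gave 117 to 283 higher and 17 to 100 lower genes, with the fewest without replicate 2. With no filter on low values 148 genes were lower, and with no variance trend 138 were. Scaling to equal sums without small RNAs gave 369 higher and 332 lower genes and moved the median of all genes to -0.047. The direct count of IL-27 against IFN-γ was 25, 0 without the block, and 0 to 2 with a replicate number left out; limma's unadjusted p was under 0.05 for 1044, 340 and 591 to 934 genes. Alternative values were counted for single named genes and for the median of the IL-27 receptor and Janus kinase list. Of these values, 3722 were unchanged in direction and side of the threshold, 656 lost the threshold and 12 gained it. The other 68, of genes that were not called or of that median, moved. Medians and counts of the other lists are not in these totals. Depth limits what can be seen below about 1.76 FPKM, worth 3 fragments of a 2 kb transcript.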

Other observations

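Genes of 4 further groups were collected after their values were seen, so their counts are a description. Of 39 tested genes that assemble ribosomes in the nucleolus, 22 were lower with IL-27 and none higher, with a median of -0.59, and 38 of the 39 lay below 0. None of the 22 passed without the block and 2 passed without replicate 3, while scaling to equal sums without small RNAs gave 27. Npm1, the nucleolar chaperone nucleophosmin, was at 3081, 3703 and 2365 FPKM under IL-33 and 2079.6, 2459 and 1509.5 under IL-33 + IL-27 (log2 difference -0.60 ± 0.10, adjusted p = 0.0103; lost in 4 of 9 leave-out fits, up to 0.147 without replicate 2). Nucleolin, encoded by Ncl, was at 317, 429.9 and 273 FPKM under IL-33 and 243, 319.9 and 192 under IL-33 + IL-27 (log2 difference -0.44 ± 0.09, adjusted p = 0.0257; lost in 8 of 9 leave-out fits, up to 0.244 without replicate 2). In both genes each pair fell by a similar factor and the ranges of the groups overlapped. Of 8 subunits of the cytosolic chaperonin ring, 3 were lower (median -0.39), none of them without the block or without replicate 3.

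Of 8 tested genes of iron storage and uptake, 2 were lower, both chains of ferritin, the iron store (median -0.27; 1 without the block). Ftl1, its light chain, was at 2336, 3152 and 2246 FPKM under IL-33 and 1118, 1397 and 1049.5 under IL-33 + IL-27 (log2 difference -1.11 ± 0.08, adjusted p = 0.000221; 0.0135 without the block), and its groups were fully separated. Fth1, the heavy chain, was at 521, 648 and 380.0 FPKM under IL-33 and 327, 341 and 313 under IL-33 + IL-27 (log2 difference -0.63 ± 0.14, adjusted p = 0.0339; lost in 7 of 9 leave-out fits, up to 0.28 without replicate 2; 0.233 without the block). Of 8 GIMAP genes, which encode GTPases of lymphocyte survival, 3 were higher and none lower, with a median of 0.49, and 2 passed without the block and none without replicate 3. Gimap4 was at 129, 184 and 161 FPKM under IL-33 and 326, 291 and 263 under IL-33 + IL-27 (log2 difference 0.89 ± 0.14, adjusted p = 0.00891; lost in 2 of 9 leave-out fits, up to 0.0792 without replicate 2).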
